A study of Homo sapiens with 6 samples.

Results

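The long terminal repeats named LTR12 and the internal regions named HERV9 are the ends and the body of one family of human endogenous retroviruses (ERVs). A full provirus has an LTR at each side of the internal part, and a solitary LTR remains where recombination has removed the rest. Loci were taken as LTR12 or HERV9 from the subfamily name of the repeat annotation, on the genome build hg38, whenever at least 1 of 6 libraries listed a fragment for them on either strand. This gave 2013 loci of 728165 transposable element (TE) loci, and of 82446 of the LTR class. LTR12C was the largest group with 1143 loci, followed by LTR12 (202), LTR12_ (114), HERV9NC-int (111), LTR12D (109), HERV9-int (106), LTR12F (95), HERV9N-int (49), LTR12E (44) and LTR12B (40).

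The cells were SW480, an established human colon adenocarcinoma line, with a stable lentiviral construct under the CMV promoter. The control lines carried the fluorescent protein Clover (3 libraries) and the other lines carried Z18trunc, a truncated ZC3H18 (3 libraries), and all kept their own ZC3H18 gene. Lines of both kinds were made in triplicate and selected with puromycin, and polyadenylated RNA was sequenced with strand kept. The construct adds to the cells' own ZC3H18, so the comparison is of overexpression and not of an edited gene.

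LTR12 elements entered the genome in primate evolution and act as promoters in several human tissues, with CCAAT boxes bound by the factor NF-Y ahead of the start of transcription. ZC3H18 is a nuclear zinc-finger protein that joins capped RNA to the complexes that hand it to the RNA exosome for decay. The comparison asks whether RNA from these elements differs in amount when the truncated protein is present.

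ZC3H18 RNA checked the labels. It stood at 58.4, 51.3 and 61.8 TPM (a share of all transcripts, corrected for length) with Clover and at 752, 739 and 798 TPM with Z18trunc, and the groups did not overlap. The libraries held 18226033 to 22463310 aligned fragments, and levels are given as counts per 1000000 of these (CPM). Of 11 colon epithelium markers, 8 passed the filter on low values and KRT20, CDX1 and LGR5 were listed at 0 in every library; of 7 markers of other cell types, PTPRC, PECAM1 and MLANA were listed at 0. PMEL (1.78 ± 0.50 TPM with Clover and 2.24 ± 1.18 TPM with Z18trunc) and COL1A1 (1.39 ± 0.169 and 1.35 ± 0.206 TPM; SD of 3 libraries each) passed the filter with overlapping groups, and VWF and COL1A2 stood below it. TE loci of all 4 classes together (LTR, LINE, SINE and DNA) were higher in Z18trunc on both strands, by a log2 ratio of means of 0.17 on their own strand and 0.19 on the opposite strand.

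LTR12 and HERV9 RNA read on the strand of the element was more abundant in the Z18trunc cells. The loci summed to 189, 176 and 179 CPM with Clover. With Z18trunc they summed to 250, 286 and 269 CPM. All 3 Z18trunc sums lay above all 3 Clover sums, with a mean of 268 ± 18.1 CPM against 182 ± 6.86 CPM (SD of 3 libraries each). The ratio of the means was 0.56 on the log2 scale. The rest of the LTR class gave a log2 ratio of 0.20. Its groups were also apart, at 3919 to 4014 CPM with Clover and 4324 to 4655 CPM with Z18trunc, as were those of all 4 classes together. The elements made up 4.27% to 4.50% of own-strand LTR RNA with Clover and 5.46% to 5.81% with Z18trunc. Because the loci were chosen with results known, these sums carry no p-value. In bulk RNA, more cells that express an element and more RNA per cell cannot be told apart.

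The number of loci with any own-strand fragment also differed. It was 676, 568 and 585 with Clover, and 769, 803 and 829 with Z18trunc. Of 1593 loci listed on their own strand, 219 were listed in all 6 libraries and 659 in 1 library. Loci listed only with Z18trunc numbered 522, and loci listed only with Clover numbered 281, or 32.8% and 17.6% of those listed. Over all TE loci listed on their own strand the shares were 33.9% and 27.2%. The other LTR-class loci numbered 12294 to 14453 a library with Clover and 13748 to 15724 with Z18trunc, and there the groups overlapped. A further 420 loci were listed on the opposite strand only, and 344 on both strands.

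The 10 most abundant loci held 29.0% to 31.7% of the own-strand sum in a library. Without them the log2 ratio was 0.61. The 1451 loci too low to be tested one by one gave 44.2, 39.2 and 38.5 CPM with Clover and 60.7, 72.8 and 68.6 CPM with Z18trunc, a log2 ratio of 0.73. Counts of uniquely mapped fragments made up 67.6% to 70.4% of the estimated counts on this strand, without separation of the groups.

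By subfamily, 4 of 10 rose on their own strand, beside 1.89% of all 898 subfamilies tested that rose (edgeR, adjusted p under 0.05). LTR12C held most of the RNA, at 117, 117 and 114 CPM with Clover and 163, 183 and 175 CPM with Z18trunc, and its log2 change was 0.58 (SE 0.08, adjusted p = 9.46e-05 by edgeR). HERV9NC-int, an internal part found beside LTR12C and LTR12D copies, stood at 14.1, 9.33 and 12.3 CPM against 18.6, 24.3 and 21.7 CPM, an edgeR log2 change of 0.85 ± 0.14 (SE, adjusted p = 0.000992). In both, the lowest Z18trunc library was above the highest Clover library.

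The other 2 that rose were LTR12 and HERV9-int. LTR12 stood at 12.4, 9.12 and 11.8 CPM with Clover and 15.5, 18.4 and 17.2 CPM with Z18trunc, an edgeR log2 change of 0.61 ± 0.13 (SE, adjusted p = 0.0196). HERV9-int stood at 6.24, 6.70 and 6.89 CPM against 10.7, 10.5 and 9.82 CPM, for which edgeR gave 0.65 on the log2 scale (SE 0.13, adjusted p = 0.0151). Neither passed without Clover replicate 1 (adjusted p = 0.0598 and 0.0915 by edgeR) or without Clover replicate 2 (0.114 and 0.0519). TMM scaling, which sets the median change near 0, left LTR12C and HERV9NC-int past the threshold, and a scaling by the TE counts read on the opposite strand outside exons left HERV9NC-int alone.

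**Figure D1:**
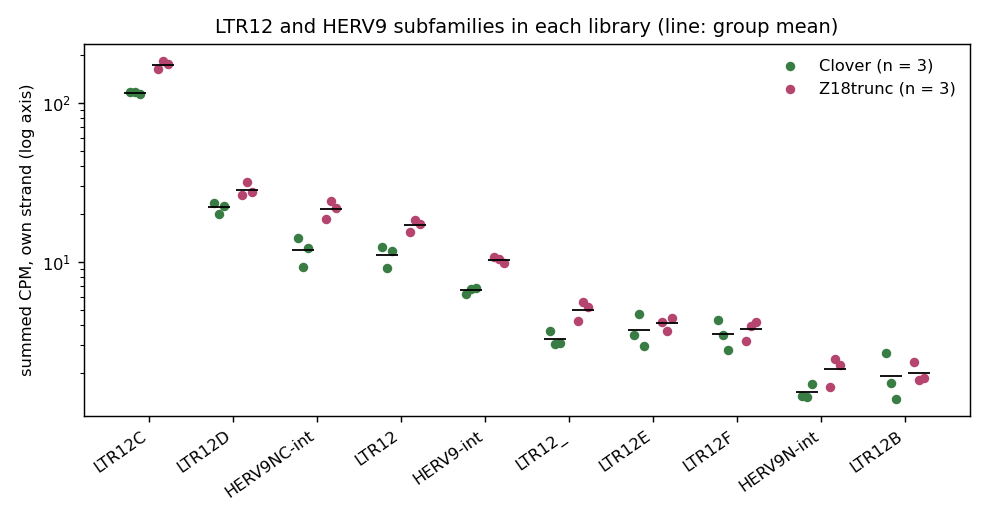
Summed own-strand CPM (log axis) of the 10 subfamilies in each library, with Clover in green, Z18trunc in magenta and the group mean as a black line. LTR12C lies far above the rest, at 114 to 117 CPM with Clover and 163 to 183 CPM with Z18trunc. The points of LTR12B, LTR12E, LTR12F and HERV9N-int overlap between groups.

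The remaining 6 subfamilies did not pass. LTR12D, the form with the second highest level, stood at 23.5, 20.0 and 22.5 CPM with Clover and 26.1, 31.6 and 27.5 CPM with Z18trunc (log2 change 0.37, edgeR adjusted p = 0.0762). LTR12_ was at 3.65, 3.03 and 3.11 CPM against 4.23, 5.60 and 5.19 CPM (log2 change 0.61, edgeR adjusted p = 0.0645). The groups did not overlap in either subfamily. LTR12D passed without Z18trunc replicate 1 or 3 (edgeR adjusted p = 0.0299 and 0.0226), and LTR12_ without Z18trunc replicate 1 (0.0210). HERV9N-int had a log2 change of 0.47 with overlapping groups. LTR12B, LTR12E and LTR12F had log2 changes of 0.05, 0.15 and 0.09, and all 3 turned negative under TMM scaling, under DESeq2 and under opposite-strand scaling.

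Within LTR12C, the copies were split into 3 sets of like number by divergence from the consensus, a guide to age. The least diverged (2.9% to 7.2%) held 63.5, 66.2 and 62.7 CPM with Clover and 83.0, 90.6 and 87.9 CPM with Z18trunc, a log2 ratio of 0.44. The middle set (7.3% to 8.6%) had a log2 ratio of 0.79 and the most diverged set (8.7% to 21.7%) one of 0.70. The groups were apart in each set, as in the rest of the LTR class, and the differences between sets were not tested.

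Position relative to genes also gave 3 sets with separate groups, as had the rest of the LTR class. Loci outside the deposited gene models went from 72.3 ± 4.19 to 115 ± 9.13 CPM (SD of 3 libraries each; log2 ratio 0.67). Loci in a gene on the other strand went from 50.5 ± 3.91 to 75.9 ± 4.30 CPM (log2 ratio 0.59), and loci in a gene on the same strand from 58.7 ± 3.89 to 77.4 ± 5.21 CPM (log2 ratio 0.40). The 187 loci that overlap a GENCODE exon on the same strand held 88.4 ± 3.47 and 120 ± 7.93 CPM. At these loci RNA of the element and RNA of the gene cannot be told apart.

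One by one, 142 loci passed the filter of 30 counts over the 6 libraries on their own strand, and 3 of them rose, beside 0.177% of all 12453 loci tested that rose. At an unadjusted p under 0.05, 47 were higher (33.1%), beside 8.17% of all loci, and 1 was lower, beside 220 of all 12453. All 3 Z18trunc values lay above all 3 Clover values at 51 loci (35.9%), beside 12.0% of all loci. The median log2 change was 0.58 over the 142 loci and 0.17 over all tested loci, and 118 of 142 were positive. Under TMM scaling these medians were 0.42 and 0.0047, and 0 of 142 loci passed, beside 4 of all 12453 that rose. At an unadjusted p under 0.05, 31 of the 142 were higher under TMM scaling, beside 493 of all 12453. DESeq2 called 1 of the 142 higher, beside 5 of all 12453. In edgeR the number that rose fell to 1 without Clover replicate 3, and to 1 without Z18trunc replicate 2, beside 13 of all loci in each.

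Among the tested loci, 31 of 90 LTR12C copies, 7 of 15 HERV9NC-int and 4 of 10 LTR12 were higher at an unadjusted p under 0.05. So were 2 of 7 LTR12D, 1 of 6 HERV9-int, 1 of 4 LTR12B and 1 of 1 HERV9N-int. Of the 4 LTR12_, 3 LTR12F and 2 LTR12E loci tested, 0 were higher at that p. Of the LTR12F loci, 1 was lower at that p (log2 change -0.69), the only such locus among the 142.

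**Figure D2:**
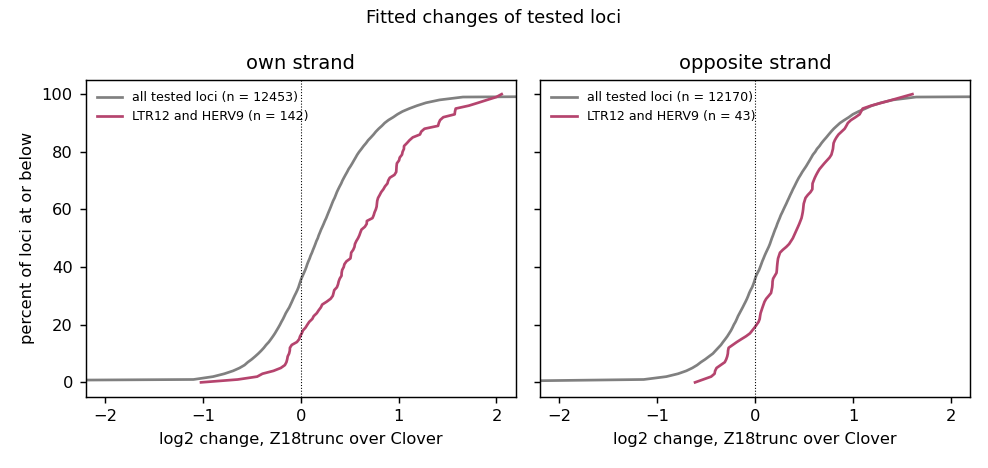
Cumulative percent of tested loci (vertical axis) against log2 change of Z18trunc over Clover, for LTR12 and HERV9 loci (magenta) and all tested loci (grey), by strand. On the own strand the magenta curve lies to the right, with medians of 0.58 and 0.17, and on the opposite strand the medians are 0.38 and 0.17.

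The first of the 3 loci that rose was a HERV9-int on chromosome 17 (31762863 to 31771334, plus strand), in an exon of a GENCODE lncRNA without a symbol. It gave 2.09, 1.67 and 2.04 CPM with Clover and 4.63, 4.06 and 3.95 CPM with Z18trunc, a log2 change of 1.12 (edgeR adjusted p = 0.00427). With its 2 flanking LTR12 copies it forms a provirus (31762039 to 31772128), which summed to 2.80, 2.40 and 2.80 CPM against 6.06, 5.54 and 5.48 CPM. Each Z18trunc sum was above every Clover sum. The locus did not pass without Z18trunc replicate 1 (edgeR adjusted p = 0.0572).

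The second was an LTR12C on chromosome 14 (23583900 to 23585447, minus strand) outside annotated genes, the third most abundant of the tested loci. It gave 6.81, 5.75 and 5.35 CPM with Clover and 9.26, 11.6 and 9.48 CPM with Z18trunc, which edgeR fitted as 0.75 on the log2 scale (SE 0.15, adjusted p = 0.0149). The groups were clearly apart, and 76.5% of its counts were uniquely mapped. It did not pass without Clover replicate 3 or without Z18trunc replicate 2 (edgeR adjusted p = 0.0799 and 0.139).

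The third was a HERV9NC-int on chromosome 19 (38823306 to 38827018, plus strand), antisense to ECH1, which codes for a peroxisomal and mitochondrial enzyme of fatty acid oxidation. It gave 0.549, 0.418 and 0.416 CPM with Clover and 1.20, 1.98 and 1.33 CPM with Z18trunc, which edgeR fitted as 1.69 on the log2 scale (SE 0.35, adjusted p = 0.0196). With the LTR12C before it, the unit had a log2 ratio of 1.41. The locus rested on 8.0 to 12.3 counts a library with Clover, and it did not pass without Clover replicate 2, Clover replicate 3 or Z18trunc replicate 2 (edgeR adjusted p = 0.0635, 0.0805 and 0.161).

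The next 3 loci by p did not pass. The chromosome 9 LTR12C (124837752 to 124839286, minus strand, outside genes) was at 1.29, 1.62 and 1.22 CPM against 2.32, 3.13 and 3.05 CPM (log2 change 1.03, edgeR adjusted p = 0.0512). A HERV9NC-int on chromosome 1 (175103902 to 175107104, minus strand, antisense to TNN, the gene of tenascin N) was at 0.140, 0.319 and 0.359 CPM against 0.691, 1.43 and 0.973 CPM (log2 change 1.93, edgeR adjusted p = 0.0658). Its whole provirus, with an LTR12C at each end (175101076 to 175109022), summed to 4.01, 2.51 and 4.69 CPM against 6.55, 8.65 and 7.53 CPM. No Clover value reached a Z18trunc value at the 2 loci or in the provirus. The chromosome 9 locus passed without Clover replicate 2 (edgeR adjusted p = 0.0448), and the chromosome 1 locus with uniquely mapped counts (0.0105). Both also passed with the replicate number as a block in the fit (edgeR adjusted p = 0.0430 for each).

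The sixth by p, and the most abundant locus, was the chromosome 6 LTR12C (43997916 to 43999279, plus strand). It overlaps an exon of a GENCODE lncRNA without a symbol, and an exon of the lncRNA SCIRT on the other strand. It gave 14.9, 17.0 and 14.3 CPM with Clover and 19.6, 22.9 and 23.3 CPM with Z18trunc (log2 change 0.51, SE 0.12, edgeR adjusted p = 0.0661). The groups did not overlap, and the locus passed when Clover replicate 2 was left out (edgeR adjusted p = 0.0186). It also passed when only uniquely mapped fragments were counted (edgeR adjusted p = 0.0462).

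**Figure D3:**
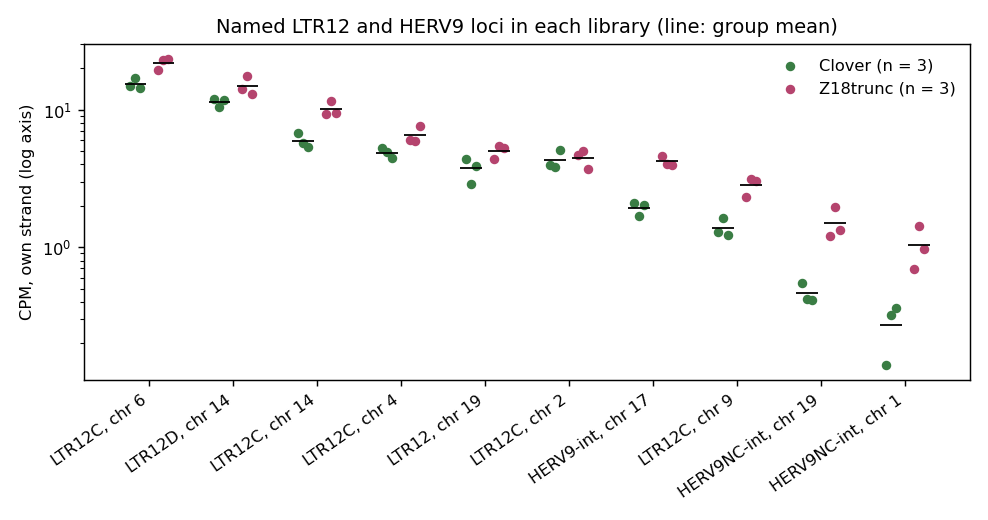
Own-strand CPM (log axis) of the 10 named loci in each library, with Clover in green, Z18trunc in magenta and the group mean as a black line. The chromosome 2 LTR12C and the chromosome 19 LTR12 have overlapping groups, and the HERV9NC-int loci at the right have the lowest levels, under 2 CPM.

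The other abundant loci did not pass either. The chromosome 14 LTR12D (23635627 to 23636652, plus strand) overlaps an exon of DHRS2, a short-chain dehydrogenase/reductase, and gave 12.0, 10.5 and 11.8 CPM against 14.1, 17.6 and 13.1 CPM (log2 change 0.38, edgeR adjusted p = 0.308). DHRS2 itself stood at 99.8, 72.1 and 90.4 TPM with Clover and 103, 118 and 101 TPM with Z18trunc. Locus and gene were each higher in every Z18trunc library than in any Clover library, and neither passed.

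The chromosome 4 LTR12C (141332215 to 141333759, minus strand) holds the start of the lncRNA gene LINC02432. The locus gave 5.30, 4.91 and 4.43 CPM against 6.06, 5.93 and 7.67 CPM (log2 change 0.42, edgeR adjusted p = 0.370). The deposited start of the gene lies 1142 bases into the LTR, and the covered stretch begins at 1149.5 bases (median over libraries). LINC02432 was at 17.9, 18.1 and 19.6 TPM against 23.4, 28.0 and 30.5 TPM, a log2 difference of 0.53 on the log2(TPM + 1) scale (limma adjusted p = 0.0773).

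A chromosome 19 LTR12 (32693106 to 32693854, minus strand), antisense to NUDT19 and in an exon of a GENCODE lncRNA without a symbol, gave 4.41, 2.90 and 3.91 CPM against 4.40, 5.43 and 5.27 CPM. Its groups overlapped by 1 library. The chromosome 2 LTR12C (27110685 to 27112017, minus strand), in an exon of CGREF1, gave 3.96, 3.82 and 5.09 CPM against 4.68, 4.99 and 3.72 CPM, and its groups were interleaved. Its log2 change of 0.05 turned to -0.11 under TMM scaling, and CGREF1, a secreted cell growth regulator, had a log2 difference of -0.11.

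Where the fragments began was examined at 120 tested LTR12 loci with at least 5 counts in a library. At 47 (39.2%) the stretch began 30 to 75 bases after the first base of an AATAAA, at 33.5 to 73.5 bases with a median of 44.5, and at none did it begin 0 to 29 bases after one. At 40 loci it began at or before the edge of the LTR, and at 33 elsewhere inside. Among 1501 other LTR-class loci, 3 (0.20%) began 30 to 75 bases after an AATAAA, 85.1% at or before the edge and 220 elsewhere inside. An AATAAA occurred anywhere in 115 of the 120 LTR12 loci and in 690 of the 1501 others. Loci without one could not score, so the shares are not of like sets. The limits of 30 and 75 bases were set after the positions had been seen, and the start is that of the most upstream fragment, not a mapped cap site.

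The 3 kinds of locus had separate groups in their sums, as had the rest of the LTR class. Loci that began after an AATAAA went from 61.3 ± 3.03 to 90.6 ± 6.35 CPM (SD of 3 libraries each), with a median log2 change of 0.78 and 20 of 47 higher at an unadjusted p under 0.05. Loci that began at or before the edge went from 44.1 ± 0.827 to 55.7 ± 3.43 CPM, with a median of 0.40 and 10 of 40. Those that began elsewhere had a median of 0.61 and 8 of 33. Over all own-strand loci tested, 8.17% were higher at that p. Among the other LTR-class loci it was 0 of 3 after an AATAAA, 85 of 1278 at or before the edge and 13 of 220 elsewhere. The difference between the kinds of LTR12 locus was not tested.

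**Figure D4:**
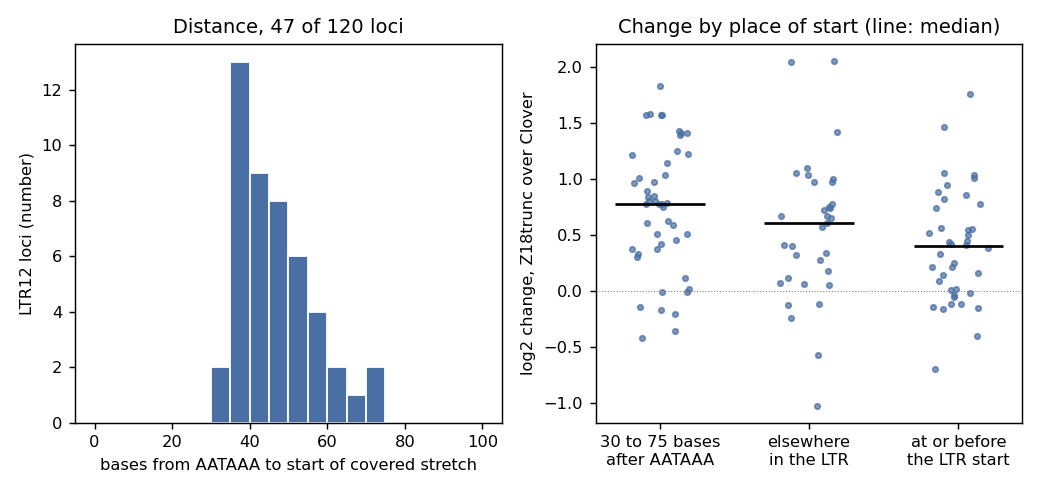
Left, number of LTR12 loci by distance in bases from an AATAAA to the start of the covered stretch, for the 47 of 120 loci within 100 bases; none starts closer than 33.5 bases. Right, log2 change of each of the 120 loci by place of start, with medians (lines) of 0.78, 0.61 and 0.40 from left to right.

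CCAAT, sought as CCAAT or ATTGG, was present in the 100 bases before the start at 42 of those 47 loci (89.4%), and GATA, sought as GATA or TATC, at 38 (80.9%). Every one of the 47 holds an AATAAA there by the way the loci were chosen. Over all 72 tested LTR12 loci that begin at least 100 bases inside, CCAAT was present in 73.6%, GATA in 62.5% and AATAAA in 65.3%. In the same window of 70 other tested LTR-class loci, CCAAT was present in 20.0%, GATA in 38.6% and AATAAA in 5.71%. TATAAA was in 0 of the 47 windows. This window was chosen after the positions had been seen. In the first 300 bases of the element, CCAAT was present at 1 of 7 named LTR12 loci and 28.8% of 1368 LTR12 loci, beside 41.1% of 1139 other tested LTR-class loci. GATA was present there at 10.0% of the LTR12 loci and 74.5% of the others. A match of letters is not a bound site.

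Units were formed from neighbouring loci on one strand with gaps of at most 500 bases. Only loci listed on their own strand entered. A locus alone here may have unlisted or more distant neighbours, and need not be a solitary LTR in the genome. Units with both LTR12 and HERV9 numbered 105 and went from 70.5, 55.8 and 68.4 CPM with Clover to 92.7, 107 and 97.2 CPM with Z18trunc, a log2 ratio of 0.61. The 1208 LTR12 copies without such a listed neighbour went from 114, 114 and 106 CPM to 150, 170 and 163 CPM, a log2 ratio of 0.53. The 39 units of HERV9 alone held 0.931 to 1.31 CPM with Clover and 0.774 to 1.36 CPM with Z18trunc, overlapping.

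On the opposite strand the elements gave less RNA. The sum was 58.1, 41.6 and 49.6 CPM with Clover and 59.7, 60.5 and 67.5 CPM with Z18trunc, a log2 ratio of 0.33 beside 0.24 for the rest of the LTR class. The groups were apart by little, since Clover replicate 1 came close to the lowest Z18trunc library. Without Clover replicate 2 the ratio was 0.22. Own over opposite strand was 1.70 to 2.08 on the log2 scale with Clover and 2.0 to 2.24 with Z18trunc, overlapping.

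Of 43 loci tested on the opposite strand, 0 rose by edgeR and 0 by DESeq2, beside 0.0575% of all 12170 loci. At an unadjusted p under 0.05, 4 were higher (9.30%), beside 7.65% of all loci. All 3 Z18trunc values lay above all 3 Clover values at 7 (16.3%), beside 12.2%. By subfamily 0 of 10 passed on this strand (edgeR), beside 12.6% of 903, and 6 were higher at an unadjusted p under 0.05, beside 31.7% of all subfamilies.

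The 3 most abundant loci there did not pass. An LTR12C on chromosome 7 (23192855 to 23194291), read in the direction of NUP42, a nuclear pore gene that contains it, gave 1.74, 1.52 and 0.917 CPM against 1.83, 1.97 and 3.48 CPM (log2 change 0.79, edgeR adjusted p = 0.374). The change was 0.44 without Z18trunc replicate 3. An LTR12C on chromosome 14 (44911978 to 44913192), outside genes, gave 2.05, 1.73 and 1.53 CPM against 1.87, 1.65 and 1.57 CPM. An LTR12_ on chromosome 14 (73567335 to 73568063) gave 1.83, 1.67 and 1.32 CPM against 1.87, 2.13 and 1.48 CPM. It overlaps an exon of ACOT2 on the strand of the element, and a GENCODE lncRNA gene without a symbol in the direction read here. In the last 2 the groups overlapped.

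Genes that code for known regulators of LTR12 were listed from the field. Of 15, 13 were tested and 0 passed (limma), beside 0.0150% of 13300 genes, and 4 were higher at an unadjusted p under 0.05, where 25.6% of all genes were. The NF-Y subunits NFYA and NFYB were among these, NFYA at 8.50, 7.05 and 8.78 TPM against 10.0, 10.1 and 11.0 TPM and NFYB at 6.44, 4.97 and 5.95 TPM against 7.49, 7.45 and 9.02 TPM. The other 2 were DNMT3A, a DNA methyltransferase, and HDAC2, a histone deacetylase, with log2 differences of 0.43 and 0.35 (limma adjusted p = 0.0773 and 0.0823). Every Z18trunc library was above every Clover library in these 4 genes, which were picked by p, and also in SETDB1 and HDAC1. The share of all genes with groups apart was not computed, so the separation cannot be read as particular to the regulators. After quantile normalization the log2 differences of the 4 genes were smaller, at 0.14 for NFYA, 0.22 for NFYB, 0.25 for DNMT3A and 0.19 for HDAC2.

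The median log2 difference over the 13 regulators was 0.17, beside 0.11 over all genes. After quantile normalization it was 0.08, beside -0.006 over all genes. GATA2, a factor that binds LTR12, had a log2 difference of 0.09 and TRIM28, the corepressor of KRAB zinc-finger proteins, one of -0.09. ZNF676 and ZNF728, KRAB zinc-finger genes, were listed at 0 in every library.

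Genes that start in or within 10000 bases after a tested locus on its strand numbered 18, of which 13 were tested and 0 passed (limma), with 4 higher at an unadjusted p under 0.05 (30.8%, beside 25.6% of all genes). TNFRSF10B, a death receptor gene known for an LTR12 promoter, stood at 75.2, 56.5 and 65.0 TPM against 72.3, 81.0 and 75.4 TPM. The LTR12C before it gave 1.96, 2.09 and 1.53 CPM against 1.78, 1.59 and 2.29 CPM. TP63, which starts from an LTR12 in the germ line, stood at no more than 0.0974 TPM in any library.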

How the data were processed

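The authors sequenced polyadenylated, stranded libraries in pairs, trimmed them (cutadapt 4.6 is in the submitters' processing notes) and counted TE loci on hg38 with SQuIRE. The deposited TE tables hold estimated counts (all fragments, with those of several sites shared out) and counts of uniquely mapped fragments per locus and strand, and the deposited gene tables hold TPM.

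Estimated counts were rounded and tested with edgeR 4.0.16 (quasi-likelihood, group only) at loci with at least 30 counts over 6 libraries, with aligned fragments as library size and Benjamini-Hochberg adjustment over all LTR, LINE, SINE and DNA loci. The same was done for the opposite strand and for subfamily sums. Genes with a mean of at least 1 TPM were tested with limma 3.58.1 on log2(TPM + 1). DESeq2 1.42.0 and the other settings are in the closing section. Exons were those of GENCODE 44. On simulated counts with 200 changed loci, edgeR recovered 24% of own-strand loci changed by 1 on the log2 scale and 66% of those changed by 2. Named loci were the 6 most abundant and the 6 lowest by p on the own strand, and the 3 most abundant on the opposite strand. Elements and gene lists were chosen with earlier results of these data known. The sequences of the named loci and 1 locus result are not reported here.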

Additional observations from a re-analysis of the deposited data

How the results depend on the processing

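Of 142 loci, 3 rose. The number was 0 under TMM scaling and 0 under opposite-strand scaling, beside 4 and 2 of all 12453 loci that rose. It was 1 under DESeq2 and 6 with the replicate number as a block, beside 5 and 32 of all. With uniquely mapped counts it was 6 of 101, beside 26 of 8995. When single libraries were left out it was from 1 to 4, beside 11 to 24 of all loci. Same-numbered libraries did not deviate together (correlations -0.0127, -0.0127 and -0.0396), which cannot show whether same-numbered lines were made together. The labels do not say. Of 10 subfamilies, 4 rose, beside 17 of all 898. The number was 2 under TMM, 2 under DESeq2 and 1 under opposite-strand scaling, beside 3, 2 and 1 of all 898. With single libraries left out it was from 2 to 6, beside 3 to 83 of all subfamilies. The own-strand log2 ratio of sums of 0.56 was 0.38 relative to all TE counts, from 0.52 to 0.61 with single libraries left out, and 0.56 as a mean over same-numbered pairs. The opposite-strand ratio of 0.33 was from 0.22 to 0.45 with single libraries left out, 0.15 relative to all TE counts, and 0.34 over same-numbered pairs. No setting brought an opposite-strand locus past the threshold. Of 142 own-strand loci, 47 were higher at an unadjusted p under 0.05, beside 1018 of all 12453. The number ran from 17 under DESeq2, beside 177 of all, to 91 of 1539 loci with at least 1 count, beside 3811 of 346109. It was 24 under opposite-strand scaling, beside 297 of 12453. On the opposite strand, 4 of 43 were higher, beside 931 of all 12170. There it was 1 under DESeq2, beside 170 of all, and 17 of 685 with at least 1 count, beside 4164 of 390570. The causes were not tested.

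Signs turned only at small changes. The chromosome 2 LTR12C was at -0.11 under TMM, -0.11 under DESeq2 and -0.23 under opposite-strand scaling, and from -0.029 to 0.19 with single libraries left out. LTR12B was at -0.13, -0.14 and -0.21 under these 3 settings, -0.079 with uniquely mapped counts, and from -0.14 to 0.38 with single libraries left out. LTR12E was at -0.038, -0.058 and -0.13, and LTR12F at -0.10, -0.11 and -0.19, and from -0.048 to 0.27 with single libraries left out. On the opposite strand the chromosome 14 LTR12C (-0.06) was at 0.022 with uniquely mapped counts and from -0.15 to 0.063 with single libraries left out.

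Depth limits single loci: 3 counts in a library are 0.134 to 0.165 CPM, and 1451 of 1593 own-strand loci were under the filter. About 30% of counts come from fragments placed among near-identical copies, so levels of single copies are estimates.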
